A study of Homo sapiens with 4 samples.

Results

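The mitochondrial ribosomal proteins examined here are the products of nuclear genes whose symbols begin with MRPL (large subunit) or MRPS (small subunit) followed by a digit. Probe sets were taken where the array's annotation assigned them to exactly 1 such protein-coding gene, which gave 140 of 54675 probe sets and 75 of 19775 genes. Of these genes, 48 are MRPL and 27 are MRPS. The annotated MRPL20-AS1, a long non-coding RNA, and MRPL45P2, a pseudogene, were left out, as were 4 probe sets that name a mitoribosomal gene together with another gene.

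Expression was measured in PC3, an established line of human prostate cancer cells first grown from a metastasis in bone. The control group received 40 nM of a control siRNA and the other group 40 nM of an siRNA that targets the nuclear receptor COUP-TFII, and total RNA was taken from both at 48 h. Each group held 2 one-colour arrays, numbered 1 and 2. The labels do not say whether these came from separate transfections, so a p-value here reflects the variation among these 4 arrays alone, part or all of which may be technical. The level of the targeted transcript is not reported here, and the siRNA labels were not checked against it.

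Mitochondria carry their own ribosome, which makes the few proteins encoded by mitochondrial DNA, all of them core subunits of the respiratory chain and the ATP synthase. Its ribosomal RNAs come from mitochondrial DNA, whereas all of its proteins are encoded in the nucleus, made in the cytosol and imported. Some of these proteins have counterparts in the bacterial ribosome and the rest were added during the evolution of mitochondria. The large subunit holds the peptidyl transferase centre and the exit tunnel, and the small subunit holds the messenger RNA and the decoding centre.

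The 4 arrays had medians of 31.7 to 32.9 intensity units over all probe sets. The epithelial keratins KRT8, KRT18 and KRT19 were bright on all 4 arrays (4190 to 9941), and the luminal prostate genes KLK2 and KLK3 lay between 8.6 and 25.9. All 3 measured blood cell markers were at 42.3 or less on every array, as were the endothelial genes VWF and CDH5, whereas PECAM1 lay between 170.8 and 244.1. Of 4 fibroblast markers COL1A1 was higher after COUP-TFII siRNA (598.6 and 540.3 against 961.6 and 949.6) and the other 3 lay at 85.3 or less, and the epithelial gene EPCAM was lower (6171 and 6127 against 5275 and 5140). The part of these markers in the mitoribosomal changes was not tested. The 3′ to 5′ ratio of the ACTB control probe sets, a sign of RNA integrity, was 1.52 and 1.83 on the control arrays and 1.42 and 1.46 on the COUP-TFII siRNA arrays, without overlap. For GAPDH it was 0.957 and 0.986 against 0.994 and 0.986. Their part was not tested either. In bulk RNA, fewer cells of a kind and less RNA per cell cannot be told apart.

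Mitoribosomal transcripts were abundant and mostly changed little, and those that passed the test were nearly all lower after COUP-TFII siRNA. The 75 genes had a median intensity of 1212, above 89.1% of all genes. By limma with Benjamini-Hochberg adjustment over all 19775 genes, 23 were lower, 2 were higher and 50 did not pass an adjusted p of 0.05. Among all genes tested, 10.3% were lower and 12.7% were higher, and the members' shares were 30.7% and 2.67%. Bright genes pass more often. Among the 6450 genes with a mean intensity of 300 or more, a limit set after seeing the data and met by 74 of the 75 members, 21.9% were lower and 25.8% higher. No test was made of the members' shares against these backgrounds. The intensities of the groups did not overlap, with COUP-TFII siRNA lower, in 41 members, and with COUP-TFII siRNA higher in 14, against 26.7% and 30.8% of all genes and 35.3% and 42.9% of the bright ones. The median log2 fold change of the members was −0.10, with an interquartile range of −0.23 to 0.031, against 0.015 for all genes. That median was 0.13 when each array was scaled to the median of 11 housekeeping genes and −0.013 when scaled to their mean, while the difference between the members' median and that of all genes was −0.11 under each. Under the housekeeping median 9 members were lower and 33 higher, against 5.71% and 32% of all genes under that scaling. The 9 were MRPL11, MRPL16, MRPL19, MRPL49, MRPL50, MRPL57, MRPS17, MRPS27 and MRPS35, at log2 fold changes of −0.90 to −0.18, and the other 14 lost the call. That scaling moved the log2 fold change of every gene by the same 0.23, and shares of bright genes were not counted under it. The housekeeping median was the level of PGK1 on every array except control replicate 2. PGK1 itself was lower on the values as deposited (log2 fold change −0.26). Fits with 1 array left out set 1 array against 2, with the lone array assumed to vary like the other group, so they pass less often at the same fold. In them 9 members were lower on leaving out either control array, 17 on leaving out replicate 1 of the COUP-TFII siRNA group and 14 on leaving out its replicate 2.

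**Figure D1:**
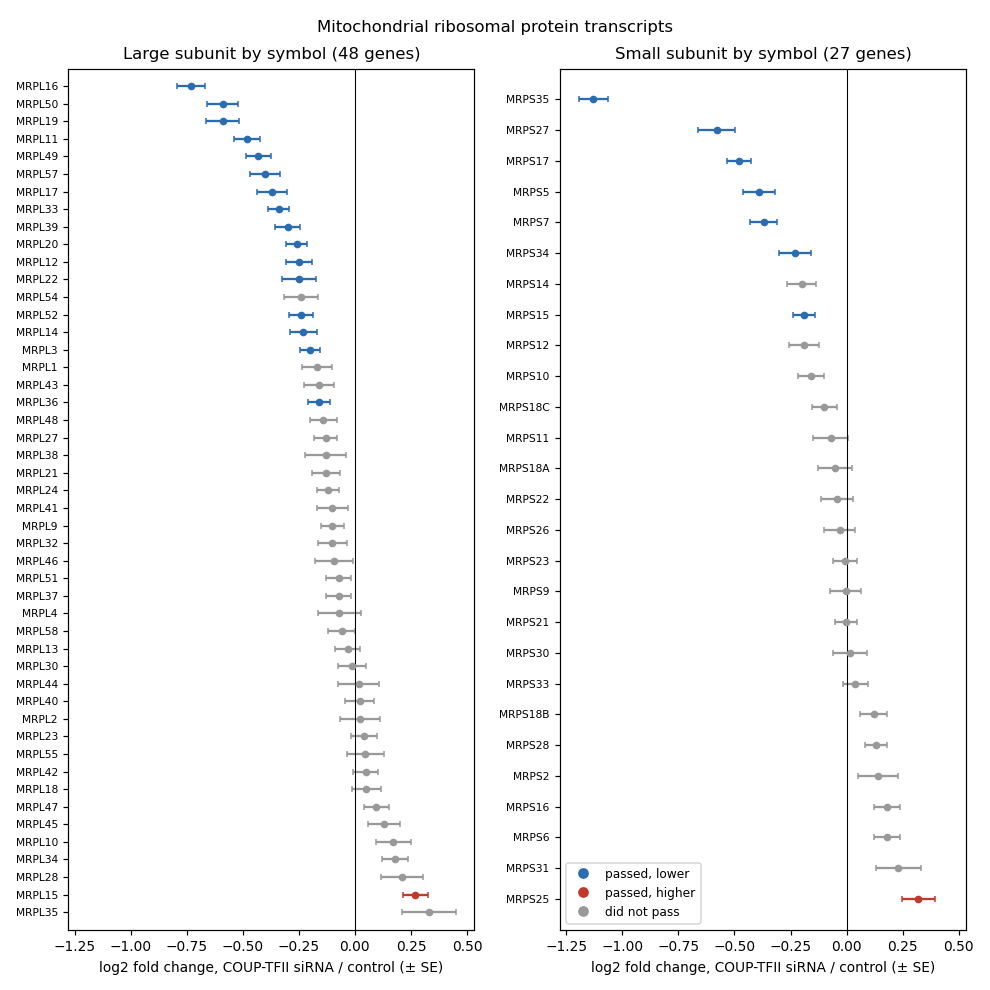
Log2 fold change of each of the 75 genes (COUP-TFII siRNA over control siRNA, horizontal axis, points with SE from limma, 2 arrays a group), with MRPL genes on the left and MRPS genes on the right. Blue points passed as lower, red as higher and grey did not pass. MRPS35 at −1.13 lies apart from the others, and the median of −0.10 becomes 0.13 when scaled to the housekeeping median.

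MRPS35, a mitochondrion-specific protein of the small subunit, had the largest change of all 75 genes. Its intensity was 1443 and 1536 on the control arrays and 655.2 and 689.4 on the COUP-TFII siRNA arrays. Both COUP-TFII siRNA values lay far below both control values. The log2 fold change was −1.13 ± 0.065 (SE), a fall of 54.3%, with a limma adjusted p of 7.35e-06. It was the only member past 2-fold, and it was −0.90 when scaled to the housekeeping median. The gene has a single probe set among the members, so no other probe set could be set beside it.

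Other small subunit transcripts fell less. MRPS27, which encodes a pentatricopeptide repeat protein, gave 938.5 and 896.5 on the control arrays and 658.1 and 564.2 on the COUP-TFII siRNA arrays. MRPS17, the counterpart of bacterial S17, gave 2410 and 2440 against 1777 and 1700. Neither pair of groups overlapped, and the log2 fold changes were −0.58 ± 0.084 and −0.48 ± 0.052 (SE; limma adjusted p of 0.00115 and 2.39e-04). MRPS27 missed the threshold without control replicate 1 (limma adjusted p = 0.0525) and when its 2 probe sets were averaged (log2 fold change −0.35, adjusted p = 0.102), where the other probe set read 9.3 or less on every array.

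MRPS5 and MRPS7 are counterparts of bacterial S5 and S7. MRPS5 gave 927.2 and 948.1 on the control arrays and 743.5 and 680.0 on the COUP-TFII siRNA arrays, a log2 fold change of −0.39 ± 0.070 (SE). MRPS7 gave 1290 and 1345 against 1029 and 1002, a log2 fold change of −0.37 ± 0.059 (SE). Both were lower without overlap. With 1 array left out, MRPS5 missed the threshold without either control array (limma adjusted p of 0.0623 and 0.0797) and MRPS7 without control replicate 2 (0.0617). Averaging the 4 probe sets of MRPS5, 2 of which lay below 50, left −0.039. When scaled to the housekeeping median both calls ended, at −0.17 for MRPS5 (adjusted p = 0.0503 by limma) and −0.15 for MRPS7 (0.0604).

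MRPS34 and MRPS15 made up the remaining small subunit falls and were the smallest of them. MRPS34, a mitochondrion-specific protein, gave 674.2 and 666.8 on the control arrays and 582.8 and 556.6 on the COUP-TFII siRNA arrays, a log2 fold change of −0.23 ± 0.070 (SE). It lost the call in each of the 4 leave-one-out fits (limma adjusted p of 0.0864 to 0.205). MRPS15, the counterpart of bacterial S15, gave 4186 and 4298 against 3834 and 3600, a log2 fold change of −0.19 ± 0.050. The groups of both genes were apart, but by little. MRPS15 passed only without COUP-TFII siRNA replicate 1 among those fits (0.0445 to 0.237). When scaled to the housekeeping median, MRPS34 stood at −0.0045 and MRPS15 at 0.035.

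The largest falls in the large subunit were those of MRPL16, MRPL19 and MRPL50. MRPL16, the counterpart of bacterial L16, gave 1272 and 1251 on the control arrays and 735.4 and 773.7 on the COUP-TFII siRNA arrays. MRPL19, the counterpart of bacterial L19, gave 2244 and 2180 against 1579 and 1361. MRPL50, a mitochondrion-specific protein, gave 815.5 and 831.5 against 554.0 and 531.9. In each of the 3 the lower control array stood above the higher COUP-TFII siRNA array. The log2 fold changes were −0.73 ± 0.062 for MRPL16, −0.59 ± 0.073 for MRPL19 and −0.59 ± 0.068 for MRPL50 (SE; limma adjusted p of 5.47e-05, 4.58e-04 and 3.28e-04). A second probe set of MRPL50 passed as well, at 424.5 and 467.4 against 315.0 and 280.8, a log2 fold change of −0.56. Averaging the 3 probe sets of MRPL19, 2 of them with means of 48.9 and 55.7, gave −0.29 (limma adjusted p = 0.172).

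MRPL11 sits at the base of the stalk where translation factors bind, and MRPL12 and MRPL10 form that stalk. MRPL11 gave 1617 and 1622 on the control arrays and 1132 and 1186 on the COUP-TFII siRNA arrays, a log2 fold change of −0.48 ± 0.057 (SE, n = 2 a group; adjusted p by limma = 3.68e-04). MRPL12 gave 1377 and 1448 against 1203 and 1173, a log2 fold change of −0.25 ± 0.058 (limma adjusted p = 0.0151). MRPL10, the anchor of the stalk, gave 719.1 and 641.1 against 745.5 and 790.8. Within this small neighbourhood, MRPL11 and MRPL12 were lower without overlap and MRPL10 lay higher without overlap but did not pass (0.17 ± 0.078, limma adjusted p = 0.162). MRPL12 lost the call in each leave-one-out fit, at log2 fold changes of −0.28 to −0.21. Scaling to the housekeeping median raised the log2 fold change of every gene by 0.23. Under it MRPL12 stood at −0.021 and MRPL10 passed as higher at 0.40.

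The 10 largest falls of the large subunit were completed by 6 more genes. MRPL49, a mitochondrion-specific protein, gave 1734 and 1769 on the control arrays and 1308 and 1283 on the COUP-TFII siRNA arrays. MRPL57, another, gave 1856 and 1862 against 1486 and 1319. MRPL17, the counterpart of bacterial L17, gave 1012 and 1093 against 831.5 and 791.1. In all 3 both control arrays were the higher ones. MRPL33, the counterpart of bacterial L33, gave 4150 and 3948 against 3199 and 3182. MRPL39, a protein related to threonyl-tRNA synthetases, gave 1489 and 1505 against 1219 and 1207. MRPL20, the counterpart of bacterial L20, gave 3832 and 3887 against 3175 and 3244. None of these 6 overlapped between groups, and their log2 fold changes ran from −0.43 for MRPL49 to −0.26 for MRPL20. When scaled to the housekeeping median MRPL49 (−0.20) and MRPL57 (−0.18) still passed, and the calls ended for MRPL17 (−0.14, limma adjusted p = 0.0946), MRPL33 (−0.12, 0.0583), MRPL39 (−0.075, 0.307) and MRPL20 (−0.04, 0.55). MRPL49 passed in all 4 fits with 1 array left out. MRPL57, MRPL39 and MRPL20 missed the threshold without either control array (limma adjusted p of 0.0648 and 0.0699, 0.0668 and 0.0797, and 0.0678 and 0.0862), MRPL17 on leaving out replicate 2 of the control (0.091) or of the COUP-TFII siRNA group (0.0626), and MRPL33 without control replicate 1 (0.0509). Averaged probe sets gave −0.21 for MRPL57 (adjusted p = 0.0974) and 0.016 for MRPL20 (adjusted p = 0.969), and 2 of the 3 MRPL20 probe sets had means of 43.3 or less. The other large subunit genes that passed as lower were MRPL22, MRPL52, MRPL14, MRPL3 and MRPL36, named after their values were seen, with log2 fold changes from −0.25 to −0.16. Of these, MRPL52 kept its call in 1 of the 4 leave-one-out fits and the other 4 in none. When scaled to the housekeeping median none of the 5 passed, and MRPL3 stood at 0.026 and MRPL36 at 0.063. Fits with averaged probe sets also ended the calls of MRPL52 (−0.087, limma adjusted p = 0.551) and MRPS15 (−0.16, 0.214). For MRPL12 (−0.25, 0.332) and MRPL39 (−0.29, 0.0523) the call ended at nearly the same fold. MRPS25 lost its call as higher at a smaller log2 fold change, 0.26 against 0.32 (limma adjusted p = 0.142). MRPL22 (0.0505) and MRPL36 (0.0569) have a single probe set, so their values were the same and only the model over all genes differed.

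**Figure D2:**
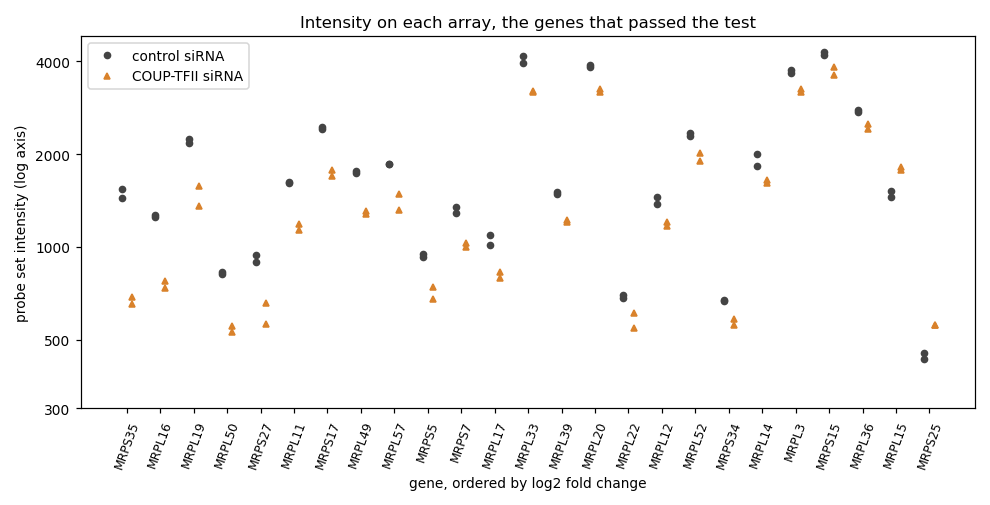
Probe set intensity (vertical axis, log scale) on each array for the 25 genes that passed, ordered by log2 fold change from MRPS35 to MRPS25. Dots are the 2 control siRNA arrays and triangles the 2 COUP-TFII siRNA arrays; the groups are apart in every gene, by most in MRPS35 and by little in MRPL36.

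The 2 genes that rose were MRPS25 and MRPL15. MRPS25, a mitochondrion-specific small subunit protein, gave 434.4 and 452.9 on the control arrays and 559.8 and 557.2 on the COUP-TFII siRNA arrays, a log2 fold change of 0.32 ± 0.075 (SE, n = 2 a group; adjusted p by limma = 0.0135). A second probe set passed in the same direction, at 121.2 and 150.9 against 235.7 and 203.1, while another, with a mean of 56.4, had a log2 fold change of −0.19 and did not pass. MRPL15, the counterpart of bacterial L15, gave 1453 and 1521 against 1816 and 1777, a log2 fold change of 0.27 ± 0.055 (limma adjusted p = 0.00717). Both genes were higher without overlap. With 1 array left out the log2 fold change stayed between 0.29 and 0.35 for MRPS25 and between 0.24 and 0.30 for MRPL15. MRPS25 passed in none of these 4 fits (limma adjusted p of 0.076 to 0.12) and MRPL15 in 1 (0.0499 to 0.11).

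Most of the remaining genes had narrow intervals on the values as deposited. Of the 50 that did not pass, 49 had a 95% confidence interval of the fold change (limma, moderated) that lay within 1.5-fold in either direction. The exception was MRPL35, the counterpart of bacterial L35, at 160.8 and 159.8 on the control arrays and 194.1 and 219.2 on the COUP-TFII siRNA arrays (log2 fold change 0.33 ± 0.12, limma adjusted p = 0.0754, interval 0.068 to 0.60). MRPS12, part of the decoding centre, gave 1144 and 1237 against 1009 and 1068, a log2 fold change of −0.19 (limma adjusted p = 0.0677, interval −0.34 to −0.044). MRPL44, which has a ribonuclease III-like fold, gave 314.1 and 293.3 on the control arrays and 311.2 and 303.4 on the COUP-TFII siRNA arrays. MRPL45, which lies by the exit tunnel, gave 603.3 and 605.6 against 685.8 and 640.0. Their log2 fold changes were 0.017 (interval −0.19 to 0.23) and 0.13 (−0.033 to 0.29), neither passing. A p above the threshold does not show that these levels were equal.

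MRPS18A, MRPS18B and MRPS18C are related to each other and to bacterial S18, and MRPS18A and MRPS30 lie in the large subunit despite their symbols. MRPS18A gave 533.1 and 564.3 on the control arrays and 535.1 and 522.0 on the COUP-TFII siRNA arrays, and MRPS18C 1345 and 1348 against 1255 and 1264. MRPS18B gave 1850 and 1751 against 2046 and 1878. None of the 3 passed, with log2 fold changes of −0.052, −0.10 and 0.12 in the order A, C and B. The second probe set of MRPS18B did pass as higher, from 514.9 and 517.6 to 657.1 and 628.8 (log2 fold change 0.31, limma adjusted p over all probe sets of 0.023). MRPS30 gave 910.9 and 917.7 against 989.2 and 864.9, a log2 fold change of 0.017 ± 0.076.

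The large subunit was compared with the small subunit. In the large subunit 16 of 48 genes were lower, 1 was higher and 31 did not pass, and in the small subunit 7 of 27 were lower, 1 was higher and 19 did not pass. These shares of lower genes, 33.3% and 25.9%, stand against 10.3% of all genes and 21.9% of the bright ones, to which the small subunit is near. The shares of higher genes, 2.08% and 3.7%, stand against 12.7% and 25.8%. The median log2 fold changes were −0.11 and −0.042. As a deviation from each gene's mean over the 4 arrays, the large subunit median was 0.054 and 0.069 on the control arrays and −0.043 and −0.083 on the COUP-TFII siRNA arrays, without overlap. The same quantity for the small subunit was −0.001 and 0.046 against 0.000 and −0.043, which overlapped. The median log2 level over a subunit's genes was also taken. For the small subunit it was 10.22 and 10.38 on the control arrays and 10.00 and 9.99 on the COUP-TFII siRNA arrays. For the large subunit it was 10.33 and 10.32 against 10.24 and 10.22. Neither subunit overlapped by this level, and its drop was larger in the small subunit. This level follows the middle gene on each array, so it does not rank the subunits by the change of their genes. The mean log2 level of the large minus the small subunit was 0.063 and 0.050 on the control arrays. On the COUP-TFII siRNA arrays it was 0.028 and 0.044. Which subunit changed more was not tested. The 2 subunit medians of the log2 fold change differed by −0.069, with a value of −0.12 when probe sets were averaged and −0.033 after quantile normalization. The mean log2 fold changes were nearer to each other, −0.13 and −0.11. Placing MRPS18A and MRPS30 in the large subunit gave 16 of 50 and 7 of 25 lower, with medians of −0.10 and −0.042. No p-value is given for this difference, because genes are not replicates.

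Genes with and without a bacterial counterpart were described in the same way. Of 46 genes with a counterpart 15 were lower (32.6%) and 1 was higher, with a median of −0.10. Of 29 mitochondrion-specific genes 8 were lower (27.6%) and 1 was higher, with a median of −0.073. Among all genes 10.3% were lower and 12.7% higher, and among the bright ones 21.9% and 25.8%, so that the mitochondrion-specific share of lower genes is near that of bright genes. Lower genes were found in both classes, and the largest fall of each class was MRPL16 with a counterpart and MRPS35 without.

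The probe sets of 1 gene were also set against each other. A total of 37 genes had more than 1 probe set. Tested over all probe sets, 21 of the 140 were lower and 5 higher, against 5.67% and 6.51% of all probe sets. Of the 37 genes, 13 had at least 1 probe set that passed. None of the 13 had every probe set pass, and none had probe sets that passed in opposite directions. Of the 65 probe sets that did not represent their gene, 35 had a mean below 100. Of the 30 at 100 or above, 21 had the sign of the representing probe set. In MRPL4 the representing probe set gave 548.8 and 613.9 on the control arrays and 511.9 and 596.9 on the COUP-TFII siRNA arrays, with overlap. Another gave 384.4 and 394.5 against 292.5 and 257.7 and passed as lower (log2 fold change −0.48, limma adjusted p = 0.0136). For MRPL35 a dimmer probe set passed as higher, at 95.1 and 106.6 against 179.6 and 155.8. An _x_at probe set of MRPL35, of a kind that can bind other transcripts, gave 719.5 and 754.5 against 770.8 and 776.8 and did not pass. MRPL4 and MRPL35 were singled out with their values in view.

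**Figure D3:**
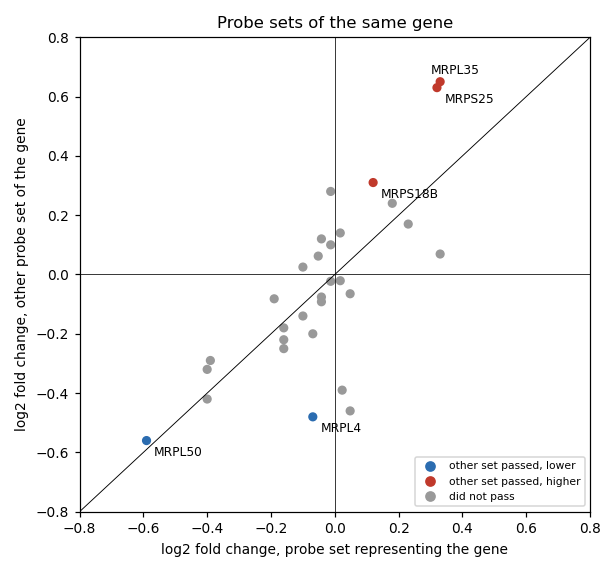
Log2 fold change of the 30 other probe sets with a mean intensity of at least 100 (vertical axis) against that of the probe set representing the same gene (horizontal axis); the diagonal marks equal values. Blue and red points passed as lower or higher over all probe sets; MRPL50 lies near the diagonal and MRPL4 well below it.

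Other ribosomal and respiratory genes gave a setting for these changes. Of 60 cytosolic ribosomal protein genes, which make the ribosome of the cytoplasm, 3 were higher and 3 lower, with a median log2 fold change of −0.005. Of 73 nuclear genes of the respiratory chain and ATP synthase, most of whose complexes hold subunits made by mitochondrial translation, 10 were higher and 14 lower, with a median of −0.017. Their shares of higher and lower genes were 5% and 5% for the cytosolic list and 13.7% and 19.2% for the respiratory list. Among all genes these shares were 12.7% and 10.3%, and among the bright ones 25.8% and 21.9%. Both lists were brighter than the mitoribosomal genes, with median intensities of 9416 and 3210. The difference between these groups and the mitoribosomal genes was not tested.

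**Figure D4:**
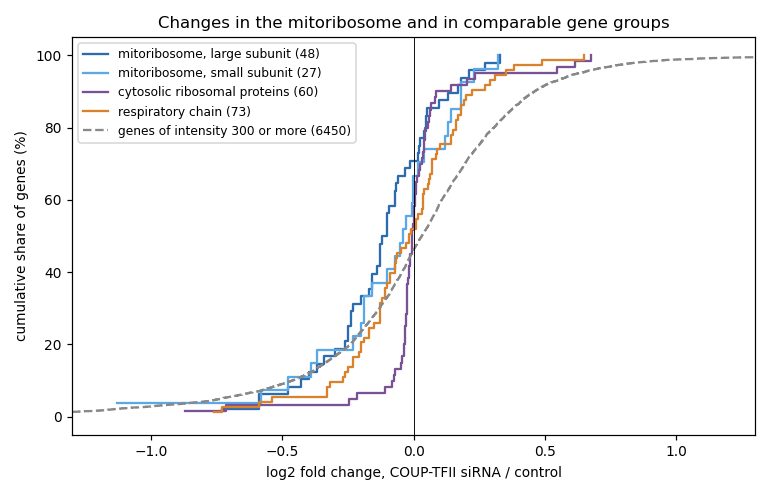
Cumulative share of genes (vertical axis, percent) by log2 fold change (horizontal axis) for the MRPL genes, the MRPS genes, 60 cytosolic ribosomal protein genes, 73 respiratory chain genes and the 6450 genes of intensity 300 or more. The large subunit curve lies to the left of the others through its middle part (median −0.11), and the cytosolic ribosomal curve is steepest near 0. Scaling to the housekeeping median moves all curves by the same amount and puts the large subunit median at 0.11.

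Genes that act with the mitoribosome were counted by list. For comparison, 10.3% of all genes were lower and 12.7% higher, and 21.9% and 25.8% of the bright ones. Mitoribosomal proteins with other symbols had 4 measured genes, all with log2 fold changes below 0, and 1 passed: CHCHD1, a small subunit protein, at 3660 and 3849 on the control arrays and 3212 and 3300 on the COUP-TFII siRNA arrays (log2 fold change −0.20 ± 0.049). Among 25 assembly factors 2 were lower and 2 higher (8% each), with a median of 0.087. MRM2, which methylates the large ribosomal RNA, gave 1164 and 1181 against 641.5 and 585.6, a log2 fold change of −0.92 ± 0.069 (SE, n = 2 a group; adjusted p by limma = 2.86e-05), whereas NOA1, a GTPase of small subunit assembly, gave 675.8 and 612.8 against 921.4 and 844.5 (0.45 ± 0.078). NGRN (−0.24) and YBEY (0.43), named after their values were seen, were the other genes of this list that passed.

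Translation itself was represented by 12 measured factors, of which 1 was lower and none higher. This was GFM1, the mitochondrial elongation factor G1 that drives translocation, at 824.0 and 810.8 on the control arrays and 502.4 and 483.9 on the COUP-TFII siRNA arrays (log2 fold change −0.71 ± 0.069, limma adjusted p = 1.18e-04). Of 18 measured genes for mitochondrial aminoacyl-tRNA synthetases and the amidotransferase, 1 was higher and none lower. This was HARS2, the histidyl-tRNA synthetase, at 388.0 and 408.0 against 690.5 and 649.8 (0.73 ± 0.077, limma adjusted p = 1.98e-04). Among 18 genes of mitochondrial DNA and RNA maintenance 4 were lower and none higher. PNPT1, a polynucleotide phosphorylase, fell from 1068 and 1069 to 733.4 and 656.0 and TRMT10C, a subunit of mitochondrial ribonuclease P, from 1110 and 1129 to 871.8 and 770.0. The other 2, TFB2M and HSD17B10 (each at −0.30), were named after their values were seen. The medians of these 3 lists were −0.014, 0.024 and −0.02. Their shares of lower genes were 8.33%, 0% and 22.2%, against 10.3% of all genes and 21.9% of the bright ones. The shares of higher genes were 0%, 5.56% and 0%, against 12.7% and 25.8%. The maintenance share of lower genes is thus near that of bright genes, and these shares were not tested.

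**Figure D5:**
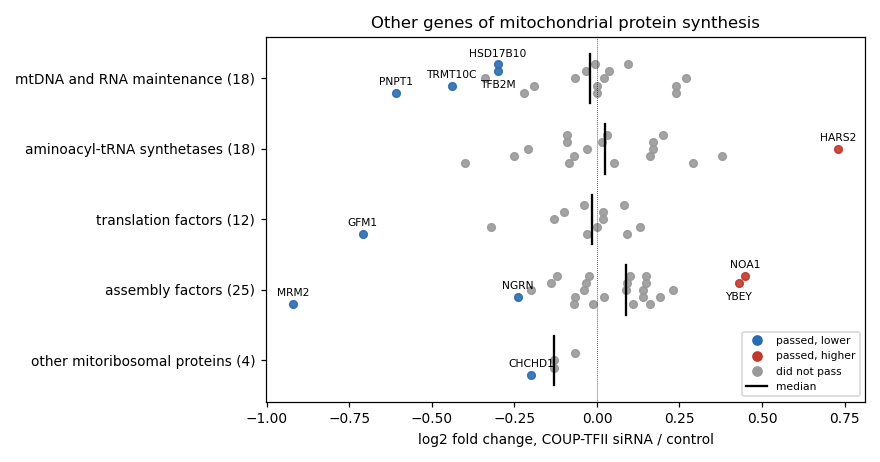
Log2 fold change (horizontal axis) of each measured gene in 5 lists of mitochondrial protein synthesis, with the list median as a vertical bar; points are spread vertically only for legibility. Blue points passed as lower and red as higher; MRM2 at −0.92 and HARS2 at 0.73 are the extremes.

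Promoter sequences were examined because 23 members were lower. RefSeq windows of GRCh38.p14, from 250 bases before to 50 after the gene's start, were matched for 67 of the 75 genes, among them all 23 that were lower. There was no entry for MRPL10, MRPL13, MRPL15, MRPL2, MRPL21, MRPL23, MRPL35 and MRPS28. Both strands were searched for CCGGAAG, the core bound by ETS factors such as GABP, and for AAGATGGC, bound by YY1. The motif bound by NRF1 was searched as GCGCA and GCGC with any 1 base (N) between them. AGGTCA was searched as a half-site of nuclear receptors such as COUP-TFII, and 1 copy counted as a match. The YY1 letters contain ATG and can overlap a coding start. The promoter of MRPS35, the gene with the largest fall, is shown without its first transcribed bases, and its window held none of the 4 motifs.
MRPS35 (chr12:27710582-27710831, plus strand): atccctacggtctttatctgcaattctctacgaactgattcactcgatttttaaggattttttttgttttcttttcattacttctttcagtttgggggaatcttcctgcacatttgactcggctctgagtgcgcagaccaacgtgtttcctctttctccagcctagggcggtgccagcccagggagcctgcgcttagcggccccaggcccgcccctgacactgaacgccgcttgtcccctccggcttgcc

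The ETS core occurred in 28 of 67 mitoribosomal promoters (41.8%), against 14.2% of 15842 promoters of protein-coding genes of the same length. It was in 6 of the 23 promoters of genes that were lower (26.1%) and in 22 of the other 44 (50%). The 6 are shown with the core, on either strand, in capitals; where a promoter held several, the one nearest the start is given.
MRPL16 (chr11:59810766-59810795, minus strand): agtgaacacaaCTTCCGGccccactgagcg
MRPL20 (chr1:1407296-1407325, minus strand): caggggctgacCCGGAAGcgctcgtgacca
MRPL3 (chr3:131502985-131503014, minus strand): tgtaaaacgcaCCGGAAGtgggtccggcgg
MRPL33 (chr2:27771700-27771729, plus strand): cgggccgtgccCCGGAAGcagttgttgttg
MRPL52 (chr14:22829871-22829900, plus strand): ggccacgcctaCTTCCGGctaccccggcta
MRPS34 (chr16:1773135-1773164, minus strand): tcttccggtgaCTTCCGGccggaccgctga

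The NRF1 motif occurred in 7 mitoribosomal promoters (10.4%, against 8.55% of all) and the YY1 motif in 19 (28.4%, against 3.84%). The NRF1 motif was in 3 of the 23 promoters of genes that were lower (13%) and 4 of the other 44 (9.09%). For the YY1 motif these counts were 7 (30.4%) and 12 (27.3%). The 3 with the NRF1 motif are shown with its letters in capitals.
MRPL17 (chr11:6683402-6683431, minus strand): aggctctgatGCGCATGCGCaaacacgttc
MRPL36 (chr5:1799928-1799957, minus strand): tcgcactccaGCGCCTGCGCactcgctgct
MRPL57 (chr13:21176574-21176603, plus strand): cctcggctctGCGCAGGCGCagtcctctct

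The nuclear receptor half-site occurred in 11 mitoribosomal promoters (16.4%, against 11.8% of all). It was in 2 of the 23 promoters of genes that were lower (8.7%) and 9 of the other 44 (20.5%). The 2, in MRPL11 and MRPS17, are shown with the half-site in capitals. A match is a description of the letters and not a binding site, and these counts were not tested.
MRPL11 (chr11:66438820-66438849, minus strand): cgtgaggaccctTGACCTctggcccaagat
MRPS17 (chr7:55951716-55951745, plus strand): ttaggaaaccagAGGTCAgcgcccccgacc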

How the data were processed

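The authors deposited a linear intensity per probe set, from 0.61 to 15890. RNA was labelled with biotin by a 3′ IVT kit, per the labels' protocols; how probes were summarised and arrays normalized is not given in the sources used here. On each array 31.4% to 33.0% of values lay below 16. The number of arrays limits the precision.

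Values were used as log2(value + 16), which understates changes of dim genes. Entrez identifiers gave current symbols from RefSeq (GRCh38.p14), matching 41037 of 41091 single-gene probe sets; 1801 name several genes and 11721 none. A gene was represented by its brightest single-gene probe set over all 4 arrays, with _x_at probe sets used only where it had no other. The 2 groups were compared in R 4.3.3 by limma 3.58.1 (linear model, moderated variance following intensity, no replicate block), with Benjamini-Hochberg adjustment over 19775 genes at 0.05, and the code was tested on simulated data. Values in every array are given for up to 10 called genes per subunit and direction and for 10 chosen members. The members and lists were chosen with earlier results of these data known. Alternatives covered the replicate block, normalization, scaling, pseudocount, dim genes, prior variance, probe set choice, threshold and leaving out each array. Scaling to the housekeeping mean and the background of bright genes were added after seeing the data. Figures were drawn with matplotlib 3.10.9.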

Additional observations from a re-analysis of the deposited data

How the results depend on the processing

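With 2 arrays a group, small changes depended on the settings, and the cause was not tested. The 4558 genes called became 7452 when scaled to the housekeeping median, 1568 with 1 prior variance, 2770 at a threshold of 0.01 and 1828 to 2348 with 1 array left out. The 23 lower mitoribosomal genes became 9 and 15 when scaled to the housekeeping median and mean, 3 with 1 prior variance, 13 with averaged probe sets, 15 at 0.01 and 9 to 17 with 1 array left out. The 2 higher genes became 5 with a replicate block, 5 after quantile normalization, 33 and 11 after the 2 housekeeping scalings, 6 without dim genes, 0 with 1 prior variance, 1 at 0.01, 7 at 0.1, 5 over every probe set and 0 to 2 with 1 array left out. The members' median of −0.10 became −0.13 when centred on all genes, 0.13 on the housekeeping median and −0.013 on the housekeeping mean. For the large subunit these values were −0.15, 0.11 and −0.029, with −0.14 to −0.10 when 1 array was left out, and for the small subunit −0.08, 0.18 and 0.04, with −0.0032 for averaged probe sets and −0.092 to −0.012 when 1 array was left out. The subunit difference of −0.069 became −0.033 after quantile normalization, −0.12 with averaged probe sets, −0.046 over every probe set and −0.091 to −0.046 with 1 array left out. Among the lower calls, MRPL20 reversed to 0.016 with averaged probe sets. On the housekeeping median, reversed values were 0.026 for MRPL3, 0.035 for MRPS15 and 0.063 for MRPL36. That scaling moved the median of all genes by 0.23, and the share of calls that were higher from 55.3% to 84.8%. Its reference was set by PGK1 on 3 arrays, and PGK1 itself was lower (log2 fold change −0.26). Under the replicate block 26 members were lower. Arrays with the same replicate number shared no deviation over all genes (correlation over 19775 genes 0.0165). That value cannot settle whether they were prepared as pairs, which the labels do not say. All 4 fits with 1 array left out kept 7 of the 23 lower calls: MRPL11, MRPL16, MRPL19, MRPL49, MRPL50, MRPS17 and MRPS35.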
